A study of Homo sapiens with 24 samples.

Results

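The genes of the human mitochondrial genome were followed through 24 RNA libraries, each gene read by the strand it is annotated on. They were found as every entry of the count tables whose name starts with MT-, which gave 37 entries of 61578: 13 protein genes, 2 ribosomal RNA genes and 22 transfer RNA (tRNA) genes. GENCODE 29 places 28 of them on the plus strand of chrM in hg38 (12 protein, 2 rRNA and 14 tRNA genes) and 9 on the minus strand, namely MT-ND6 and 8 tRNA genes. The cells were HGC27, an established human gastric carcinoma line, in 4 forms: parental cells, SGCTRL (a wild-type control line, SG Control) and SG12 and SG21 (both TMEM97 knockout lines; TMEM97 encodes a sterol-binding membrane protein). Each form grew for 3 days in high-glucose DMEM with fetal bovine serum (FBS) or with lipoprotein-deficient serum (LPDS), 3 libraries per line and medium. The labels do not say which guide or clone a line comes from, and they do not say what was separate between the 3 biological samples, so the p-values measure the spread between these libraries only. Total RNA was depleted of ribosomal RNA and made into stranded libraries.

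Mitochondrial DNA is a small circle copied into RNA from both strands as long transcripts. Enzymes cut the tRNAs out of these transcripts and so free the messenger and ribosomal RNAs between them. Its protein genes encode core subunits of the respiratory chain: the ND genes of complex I, MT-CYB of complex III, the CO genes of complex IV and the ATP genes of the ATP synthase. MT-ND6 is the only protein gene whose message comes from the transcript of the other direction, which otherwise carries little but tRNAs and RNA antisense to genes. RNA made in that direction and not kept is degraded in mitochondria.

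Across these tables counts lie mostly on the strand opposite to the named gene. GAPDH, a glycolytic enzyme gene, averaged 91.8 CPM (counts per 1000000 counted reads) in the entry that bears its name. The antisense entry ENSG00000269968 on its other strand averaged 4.27e+04 CPM. If the mitochondrial entries were counted the same way, the MT-ND6 entry holds RNA running in the direction of MT-ND5 and MT-CYB, and the entries of those genes hold RNA running in the direction of MT-ND6. No value here tests that orientation on the mitochondrial genome itself, so each entry is called the row of its gene, and minus-strand and plus-strand refer to the annotation. A row's fold change is therefore not read here as a fold change of that gene's message.

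The strands differ in base composition, which the start of 4 protein genes shows, read 5′ to 3′ as the message with each G in capitals (first 90 bases, GENCODE 29 transcripts, hg38). MT-ND6 is the minus-strand gene, MT-ND5 and MT-CYB are the plus-strand rows with the most reads, and MT-CO1 is the row that varied least.
MT-ND6: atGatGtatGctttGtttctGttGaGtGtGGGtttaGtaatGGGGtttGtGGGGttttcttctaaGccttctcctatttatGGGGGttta
MT-ND5: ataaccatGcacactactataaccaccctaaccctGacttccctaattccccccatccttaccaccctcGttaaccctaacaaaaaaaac
MT-CYB: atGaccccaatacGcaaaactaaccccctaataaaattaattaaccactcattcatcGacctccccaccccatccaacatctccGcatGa
MT-CO1: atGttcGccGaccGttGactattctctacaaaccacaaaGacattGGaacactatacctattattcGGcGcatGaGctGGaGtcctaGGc
These stretches hold 27 G in MT-ND6, 3 in MT-ND5, 5 in MT-CYB and 18 in MT-CO1. Over its whole length (chrM, 14149 to 14673, minus strand) MT-ND6 is 35.6% G and 7.05% C. The 12 plus-strand protein genes have a median of 11.2% G (6.28 to 16.2%) and 33.4% C. MT-ND5 (chrM, 12337 to 14148) ends at the base before MT-ND6, and MT-CYB runs from 14747 to 15887.

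The 5 tRNA rows with the most reads were all minus-strand rows. They are printed whole in the sense of the tRNA, G in capitals, with MT-TE, the other minus-strand tRNA row that was tested, and the plus-strand MT-TT (threonine) for contrast. The first 6 carry serine (MT-TS1), proline (MT-TP), tyrosine (MT-TY), glutamine (MT-TQ), alanine (MT-TA) and glutamate (MT-TE).
MT-TS1: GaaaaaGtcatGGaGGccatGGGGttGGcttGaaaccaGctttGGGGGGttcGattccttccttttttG
MT-TP: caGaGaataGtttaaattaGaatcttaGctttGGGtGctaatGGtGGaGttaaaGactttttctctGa
MT-TY: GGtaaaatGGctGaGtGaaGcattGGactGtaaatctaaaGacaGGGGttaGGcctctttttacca
MT-TQ: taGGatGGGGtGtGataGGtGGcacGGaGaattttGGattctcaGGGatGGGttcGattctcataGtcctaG
MT-TA: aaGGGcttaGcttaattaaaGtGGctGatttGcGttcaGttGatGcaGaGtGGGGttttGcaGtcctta
MT-TE: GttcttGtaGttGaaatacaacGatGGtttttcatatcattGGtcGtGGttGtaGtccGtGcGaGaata
MT-TT: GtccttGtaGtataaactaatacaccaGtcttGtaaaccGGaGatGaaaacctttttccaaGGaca
MT-TS1 lies at 7446 to 7514 of chrM, beginning at the base after MT-CO1 (5904 to 7445), which is on the other strand. MT-TP (15956 to 16023) lies beside MT-TT (15888 to 15953), and MT-TY spans 5826 to 5891. The 8 minus-strand tRNA genes have a median of 28% G and the 14 plus-strand tRNA genes 15.4%.

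The tables held 2.40 to 5.54 M (1000000) gene-assigned reads per library, 5.28 to 5.54% of the uniquely aligned reads. Cell type markers were read through the opposite-strand entry where one exists: vimentin, a mesenchymal filament protein, averaged 2.39e+04 CPM, while the 5 of 10 epithelial markers with such an entry (CDH1, KRT7, KRT8, KRT18 and GRHL2) were all below the 6.01 CPM set as the level of background, although the labels call the cells epithelial. Of the 7 mesenchymal markers listed, vimentin among them, 6 had such an entry and 5 lay above that level. CDH2, at 0.451 CPM, lay below it. TMEM97, read through the IFT20 entry, had a mean of 131 ± 12.8 CPM (SD, n = 3) in SGCTRL, of 52.8 ± 4.10 CPM in SG12 and of 76.0 ± 2.96 CPM in SG21 with FBS. With LPDS these means were 162 ± 11.5, 195 ± 16.8 and 124 ± 3.92 CPM, so this RNA was not lower in SG12 in that medium. One technical share separated the libraries into 2 classes with a gap between them: reads that matched more than 1 gene were 2.10 to 2.24% in 8 libraries (all 6 of SGCTRL and replicates 2 and 3 of SG21 in LPDS) and 2.58 to 3.15% in the other 16. They are called the low-share and high-share libraries, and the class holds no SGCTRL library on the high side, so class and control line cannot be told apart there.

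The mitochondrial rows together took 0.102 to 1.13% of the counted reads. With these bulk RNA counts, fewer mitochondria, a smaller share of cells holding such RNA and less RNA in each cannot be told apart. The minus-strand rows hold 6.99% of the summed gene length and took 43.4% of all 309998 mitochondrial reads. That share differed between groups, with 24.85 to 31.63% in the 6 SGCTRL libraries and 46.7 to 57.1% in the 6 SG12 libraries, and the highest library was replicate 1 of SG21 in LPDS at 59.75%. MT-ND5 had 23.7% of the reads, MT-TS1 13.3%, MT-CYB 11.7%, MT-TP 10.7% and MT-ND6 10.5%, so these 5 rows made up 69.8%.

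Per kb of gene, the minus-strand rows MT-TS1, MT-TP and MT-TY stood at mean levels of 7994, 6416 and 4199 CPM per kb over the 24 libraries. MT-TQ (852 CPM per kb) and MT-ND6 (839) came next, and the highest plus-strand row was MT-ND5 at 522 CPM per kb, followed by MT-CYB at 410. The other complex I rows ranged from MT-ND3 at 234 to MT-ND2 at 38.1 CPM per kb, with MT-ND4 at 143, MT-ND4L at 116 and MT-ND1 at 78.1. The complex IV rows MT-CO3, MT-CO1 and MT-CO2 stood at 172, 113 and 62.0 CPM per kb. The ATP synthase rows stood at 70.9 (MT-ATP6) and 9.96 CPM per kb (MT-ATP8). The order differed between groups. MT-TS1, MT-TP and MT-TY were the highest 3 rows per kb in all 8 groups, but in SGCTRL MT-TP led (3366 ± 259 CPM per kb in FBS, SD, n = 3) and MT-TS1 came after MT-TY (955 ± 128). In SGCTRL in FBS MT-ND5 (321 ± 49.0 CPM per kb) and MT-CYB (262 ± 27.0) stood above MT-ND6 (164 ± 25.1) and MT-TQ (137 ± 40.5). By group mean MT-ND5 also stood above MT-ND6 in SGCTRL in LPDS and in both parental groups, and below it in both groups of SG12 and of SG21. In SG21 in LPDS this rested on replicate 1, where the ratio of MT-ND6 to MT-ND5 reads was 0.911. It was 0.178 and 0.144 in replicates 2 and 3, where MT-ND5 stood above MT-ND6 per kb. In replicate 1 of parental cells in each medium MT-ND6 stood above MT-ND5. Neighbours in this order overlapped widely over the 24 libraries, for example MT-TQ and MT-ND6, so the order within each run of like values is not firm.

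**Figure D1:**
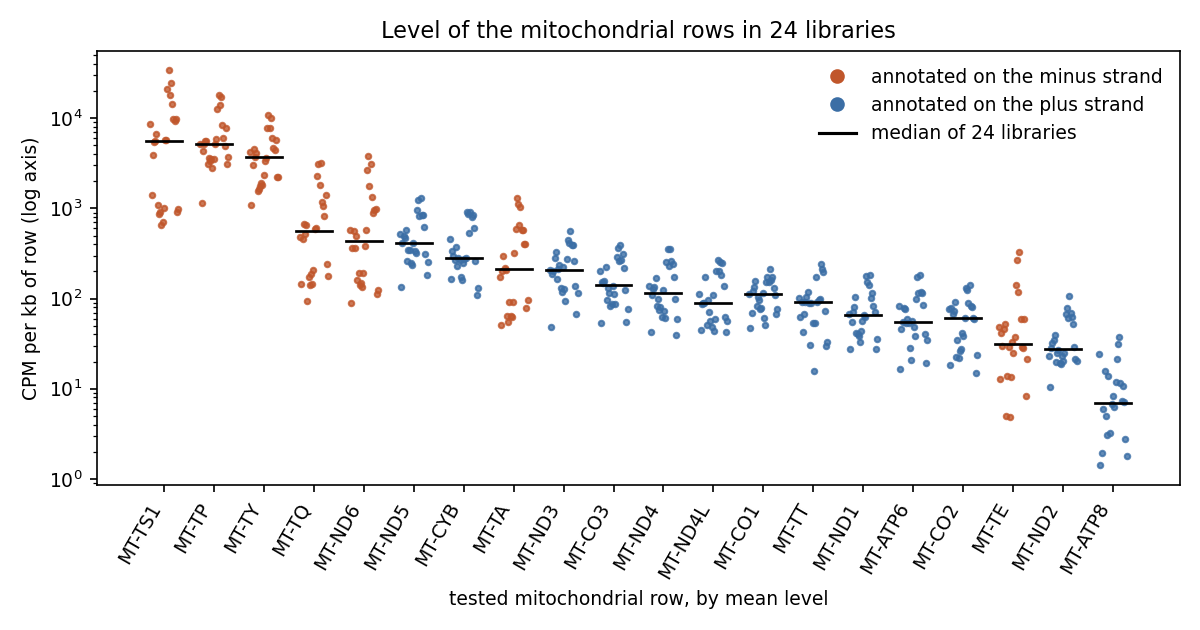
Level of each tested mitochondrial row in 24 libraries, in CPM per kb of gene on a log axis, ordered by mean; points are libraries in the order of the groups, black lines are medians, colours give the annotated strand, and values of 0 (2 libraries for MT-ATP8) are not drawn. The 5 highest rows by the mean over all libraries, from MT-TS1 to MT-ND6, are on the minus strand; in SGCTRL and parental cells the MT-ND5 mean lies above MT-ND6.

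MT-ATP8 shares its last bases with MT-ATP6, printed in capitals, and a read that matches both genes may be counted for neither.
MT-ATP8: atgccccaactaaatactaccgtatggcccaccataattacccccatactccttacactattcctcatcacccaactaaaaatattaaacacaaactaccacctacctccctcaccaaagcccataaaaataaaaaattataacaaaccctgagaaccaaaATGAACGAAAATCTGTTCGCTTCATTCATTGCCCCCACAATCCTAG
The shared stretch is 46 of its 207 bases, while MT-ND4L and MT-ND4 share 7 bases. MT-ATP8 had 0 to 24 reads per library and is reported as uncertain.

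The rRNA rows were nearly empty. MT-RNR2, the large subunit RNA, had 0 to 10 reads per library, and MT-RNR1, the small subunit RNA, 0 to 7, or 4.72 CPM at most for both together. The kit removes ribosomal RNA, and these rows may hold the opposite strand, so the values do not measure rRNA. Of the plus-strand tRNA rows 7 (MT-TF, MT-TV, MT-TL1, MT-TK, MT-TG, MT-TR and MT-TS2) had no read in any library; 0 of 78.9 M counted reads allows up to 0.0380 CPM, counting error only. In all, 20 rows passed the filter on low counts and were tested: 13 on the plus strand (the 12 protein rows and MT-TT) and 7 on the minus strand (MT-ND6 and the 6 tRNA rows printed above). The other 17 rows were too low to test.

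By group mean the MT-ND6 row was lowest in SGCTRL, where its SD was also smallest, and highest in SG12 in LPDS; the lowest single library was parental, in FBS. In parental cells its level was 300.7, 46.89 and 192.8 CPM in FBS and 292.7, 190.7 and 258.5 CPM in LPDS. In SGCTRL it was 83.73, 100.3 and 74.17 CPM in FBS and 77.89, 70.77 and 101.4 CPM in LPDS. These control values lay within the range of parental cells in FBS and below every parental library in LPDS. The SG12 libraries gave 202.0, 299.2 and 1383 CPM with FBS and 2009, 935.9 and 1635 CPM with LPDS. The SG21 libraries gave 709.5, 472.6 and 499.6 CPM with FBS and 512.1, 59.03 and 66.03 CPM with LPDS. Both knockout lines lay above every SGCTRL library in FBS, and SG12 did so in LPDS, whereas the 3 SG21 libraries in LPDS fell on both sides of SGCTRL.

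The 12 plus-strand protein rows, summed, moved over a narrower range. With FBS the sum was 2296, 695.4 and 1772 CPM for the parental cells, 1247, 1585 and 1503 CPM for SGCTRL, 1409, 1341 and 4151 CPM for SG12 and 3771, 3851 and 2798 CPM for SG21. With LPDS the sum was 1998, 2015 and 2557 CPM for the parental cells, 1096, 1031 and 1739 CPM for SGCTRL, 4956, 3430 and 5321 CPM for SG12 and 1497, 769.7 and 1022 CPM for SG21. Here SG12 in FBS overlapped SGCTRL in FBS, and SG12 in LPDS lay above every other LPDS library. Highest over lowest library was 42.8 times for MT-ND6 and 52.3 times for MT-TS1, against 9.78 times for MT-ND5 and 4.57 times for MT-CO1. Single libraries stood apart in both sums: replicate 3 of SG12 in FBS (8663 CPM over all 37 rows, against 2648 and 2779 in the other 2), replicate 2 of parental cells in FBS (1016, against 3896 and 2792) and replicate 1 of SG21 in LPDS (3736, against 1280 and 1585).

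**Figure D2:**
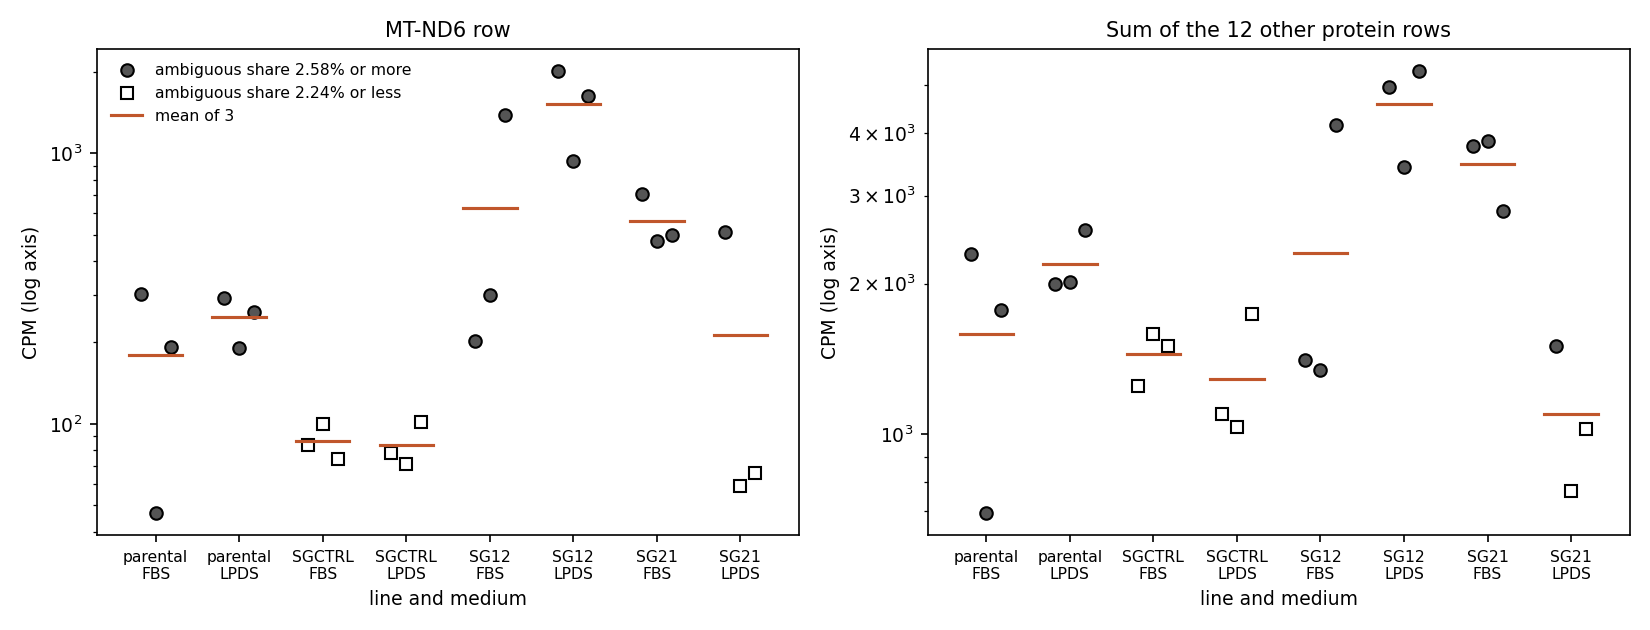
CPM of the MT-ND6 row (left) and the sum of the 12 other protein rows (right) by line and medium, on log axes; each point is a library, its shape gives the share of reads matching more than 1 gene, and the line is the mean of 3. The SGCTRL libraries sit between 70.77 and 101.4 CPM for MT-ND6, below all 6 SG12 libraries.

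The balance between strands was set as the log2 ratio of MT-ND6 to the 12 other protein rows, each per kb. It averaged 1.03 ± 0.49 (SD, n = 3) in parental cells in FBS and 1.21 ± 0.34 in LPDS, and 0.30 ± 0.24 and 0.45 ± 0.15 in SGCTRL. SG12 stood at 2.19 ± 0.61 in FBS and 2.75 ± 0.29 in LPDS, with no overlap with SGCTRL or parental cells in LPDS. SG21 averaged 1.73 ± 0.34 in FBS. In LPDS its libraries gave 2.82, 0.67 and 0.42, and only the first of them is a high-share library. Over all lines the balance was 0.03 to 0.67 in the low-share libraries and 0.48 to 3.07 in the high-share libraries, so the classes overlapped little.

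A pair of minus-strand tRNA rows separated the same 2 classes without overlap. The pair was not among the planned measures, so this is a description of these libraries and no test. The ratio of MT-TS1 to MT-TP reads was 0.186 to 0.358 in the 8 low-share libraries and 0.923 to 1.92 in the other 16. In SG21 in LPDS, where the medium and line are the same, the ratio was 1.29 in replicate 1 and 0.300 and 0.271 in replicates 2 and 3. MT-TS1 itself read 677.9, 63.29 and 68.23 CPM in these libraries, and MT-TP 525.5, 211.2 and 251.7 CPM. The share of reads aligned to several places was 10.9% in the first and 18.1 and 17.2% in the other 2. It was 10.8 to 19.6% (median 16.6%) in the low-share libraries and 10.4 to 15.8% (median 11.7%) in the others. The part of these library properties in the differences between lines was not tested beyond the fits below.

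**Figure D3:**
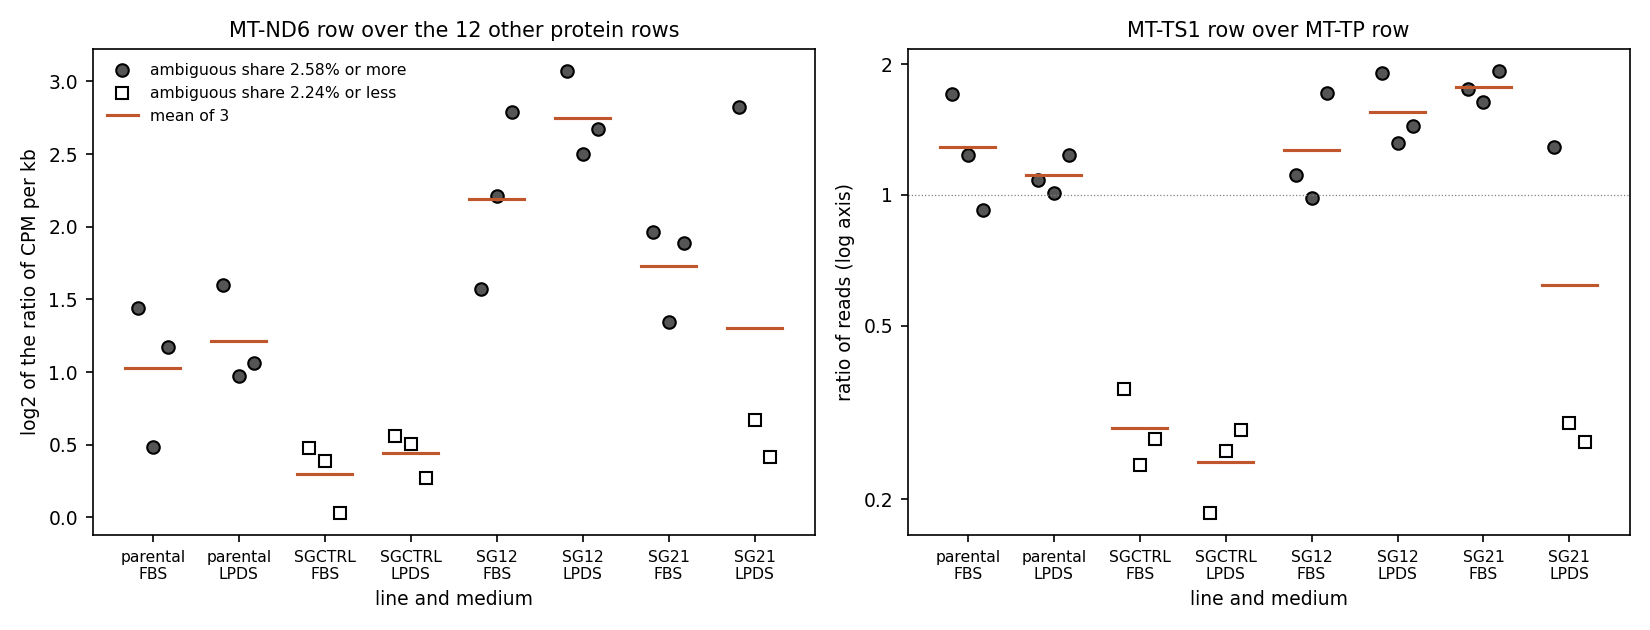
Left, log2 ratio of MT-ND6 to the 12 other protein rows (CPM per kb); right, ratio of MT-TS1 to MT-TP reads on a log axis with a dotted line at 1; points are libraries by line and medium, shape gives the share of reads matching more than 1 gene, and lines are means of 3. On the right the 8 low-share libraries lie between 0.186 and 0.358, below all others.

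The first comparison asks whether loss of TMEM97 goes with a change in mitochondrial RNA in full serum. It used edgeR's quasi-likelihood F test over all 12822 entries tested, with Benjamini-Hochberg adjustment and a threshold of 0.05 for the adjusted p; each log2 fold change is given with its standard error. In SG12 against SGCTRL in FBS, 7 of 20 rows rose, none fell, and 12.1% of all entries rose. Of these 7 rows 6 were on the minus strand: MT-TS1 (log2 fold change 3.51 ± 0.86, adjusted p = 0.00578 by edgeR), MT-TA (3.37 ± 0.64), MT-TQ (3.05 ± 0.75), MT-ND6 (2.86 ± 0.85, adjusted p = 0.0196 by edgeR), MT-TE (1.98 ± 0.71) and MT-TY (1.58 ± 0.44). The other was MT-ND1 (1.33 ± 0.42). The median log2 fold change was 2.86 over the 7 minus-strand rows and 0.48 over the 13 plus-strand rows, beside -0.03 over all entries. Without replicate 3 of SG12 in FBS 4 rows were called. For fits that leave out a library, here and below, the share of all entries called is not given. Such counts are therefore not set against it.

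SG21 against SGCTRL in FBS gave 8 of 20 rows higher, none lower, where 7.35% of all entries rose. The minus-strand rows that rose were MT-TS1 (3.55 ± 0.86, adjusted p = 0.00928 by edgeR), MT-TQ (2.88 ± 0.74), MT-TA (2.86 ± 0.64), MT-ND6 (2.70 ± 0.84, adjusted p = 0.0412 by edgeR) and MT-TY (1.60 ± 0.44). On the plus strand MT-CYB (1.53 ± 0.46), MT-ND2 (1.36 ± 0.36) and MT-ND1 (1.32 ± 0.41) rose. The medians were 2.70 over the minus-strand and 1.26 over the plus-strand rows. Both knockout lines were compared with the same 3 SGCTRL libraries. Leaving out 1 library lowered this count to 2 to 6: it was 2, 4 and 3 without SGCTRL replicate 1, 2 or 3, and 4 and 5 without SG21 replicate 1 or 2.

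In LPDS the lines parted. In SG12 against SGCTRL 18 of 20 rows rose, none fell, and 5.13% of all entries rose. All 7 minus-strand rows were among them, from MT-TS1 (5.0 ± 0.90, adjusted p = 0.00132 by edgeR) and MT-ND6 (4.18 ± 0.88, adjusted p = 0.00454 by edgeR) to MT-TP (2.32 ± 0.46) and MT-TY (2.23 ± 0.44). Of the plus-strand protein rows 11 of 12 rose, among them MT-ATP6 (2.12 ± 0.47), MT-CYB (1.99 ± 0.46), MT-ND2 (1.99 ± 0.36) and MT-ND5 (1.92 ± 0.46). MT-CO1 (0.99 ± 0.35, adjusted p = 0.0863 by edgeR) and MT-TT (0.72 ± 0.47) did not pass. The medians were 3.64 over the minus-strand and 1.82 over the plus-strand rows. Without SGCTRL replicate 2 in LPDS 11 rows were called.

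In SG21 against SGCTRL in LPDS no row was called by edgeR (2 at an unadjusted p under 0.05, 1 by DESeq2), while 10.9% of all entries were called in either direction. MT-TS1 had a log2 fold change of 2.28 ± 0.84 (adjusted p = 0.101 by edgeR) and MT-ND6 1.33 ± 0.83. All 7 minus-strand rows had estimates above 0, with a median of 1.32, and the plus-strand rows a median of -0.22. The one SG21 library of the high-share class read 512.1 CPM in the MT-ND6 row, while the other 2 lay below every SGCTRL library in LPDS. Without SG21 replicate 2 in LPDS 1 row was called.

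**Figure D4:**
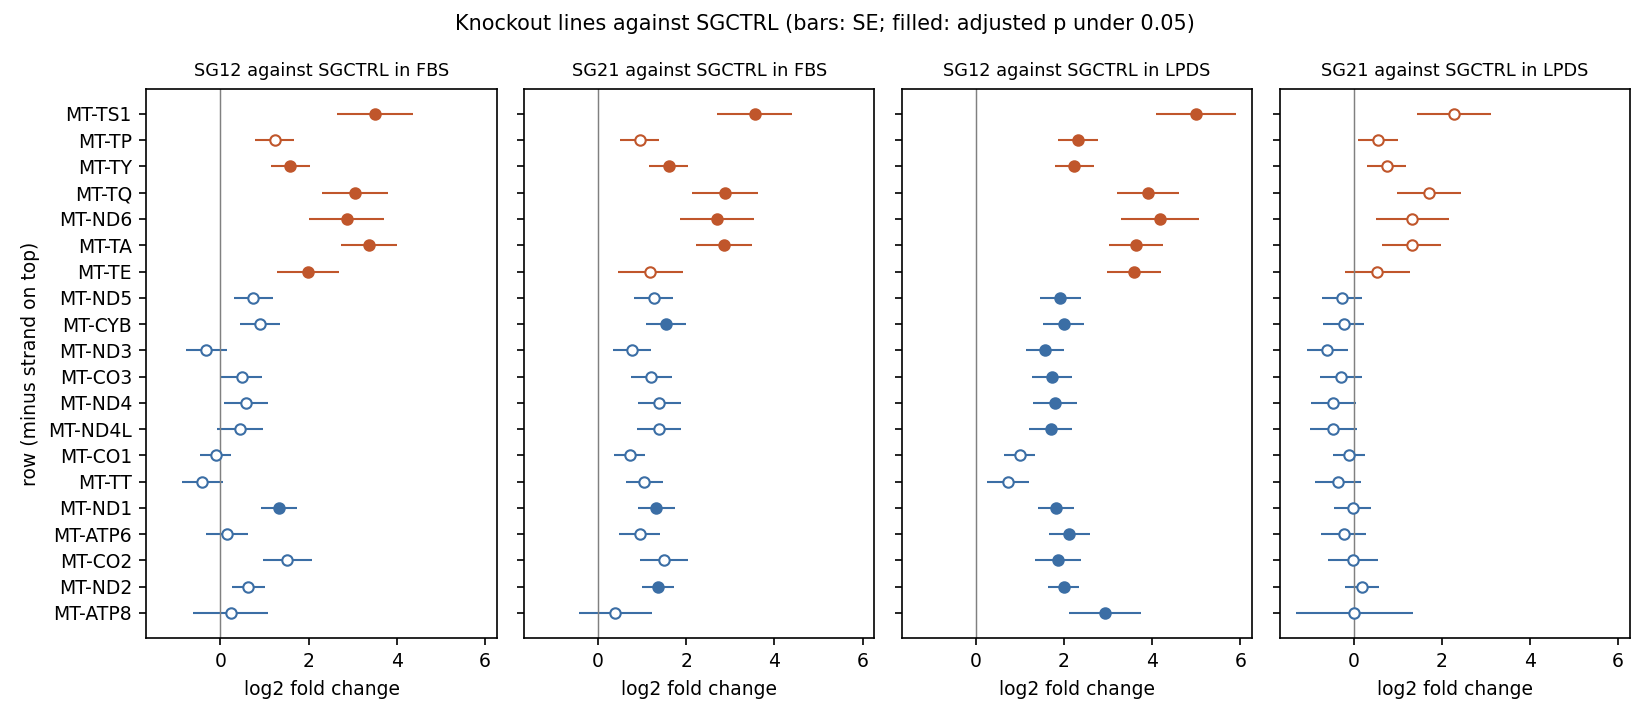
Log2 fold change of the 20 tested rows in each knockout line against SGCTRL, in FBS (left pair) and LPDS (right pair); minus-strand rows are on top in orange, plus-strand rows below in blue, bars are standard errors, and filled points passed an adjusted p of 0.05. In SG12 against SGCTRL in LPDS 18 points are filled, in SG21 none.

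These differences rest on the SGCTRL libraries, which are all low-share libraries. With a term for the library class in the fit, 0 of 20 rows were called in each of the 4 knockout comparisons (edgeR), where 6.57% (SG12 in FBS), 1.22% (SG21 in FBS), 1.56% (SG12 in LPDS) and 9.52% (SG21 in LPDS) of all entries were called. In that fit MT-ND6 changed to -0.17 (SG12) and -0.33 (SG21) in FBS, neither called. In SG12 in LPDS all 7 minus-strand estimates stayed above 0 (0.87 to 1.63, median 1.18), and the plus-strand median was 0.87, down from 3.64 and 1.82. Only SG21 in LPDS has libraries of both classes, so its 3 replicates alone set the class term. With parental cells as the control, all high-share libraries, 1 row was called by edgeR in SG12 in FBS and 4 in SG21 in FBS, where 26.5% and 24.2% of all entries were called. In LPDS 5 were called in SG12, all higher (4 of them on the minus strand), and 0 in SG21, where 9.51% and 11.3% of entries were called. The 8 rows of SG21 at an unadjusted p under 0.05 by edgeR were all lower plus-strand rows, such as MT-ND3 (-1.37). All 20 estimates of SG21 against parental cells in LPDS were below 0, but replicates 2 and 3 of SG21 there are low-share libraries. Without the low-share libraries 1 SG21 library in LPDS is left. All 7 minus-strand estimates were then above 0, from 0.43 (MT-TE) to 1.19 (MT-TQ). The plus-strand protein estimates stayed below 0, from -1.02 (MT-ND3) to -0.215 (MT-ATP8), and MT-TT was at 0.08. MT-ND6 was at 1.80 (adjusted p = 0.114 by edgeR) in FBS and 2.63 (adjusted p = 0.0525 by edgeR) in LPDS in SG12 against parental cells, and all 7 minus-strand rows had an unadjusted p under 0.05 in the latter, with a median of 2.11. SGCTRL against parental cells gave 0 rows called by edgeR in FBS (1 at an unadjusted p under 0.05, 1 by DESeq2), where 18.3% of all entries were called in either direction. In LPDS it also gave 0 rows (7 at an unadjusted p under 0.05, 1 by DESeq2), where 0.811% of entries were called. MT-TS1 had the lowest estimates of the 20 rows in both, -2.30 ± 0.83 and -2.89 ± 0.84. The class term turned these directions: with it all 20 estimates were above 0 in FBS (0.18 to 1.97) and all 7 minus-strand estimates in LPDS (0.35 to 1.49), none called, and MT-TS1 was at 1.06 and 0.48.

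The medium comparison asks how each line responds to lipoprotein-deficient serum. Parental cells gave 0 rows called by edgeR (2 at an unadjusted p under 0.05, 0 by DESeq2), where 4.55% of all entries were called in either direction, with a median log2 fold change of 0.54 over the 20 rows. SGCTRL gave 0 rows (0 at an unadjusted p under 0.05, 0 by DESeq2), where 2.33% of entries were called, with a median of -0.04.

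In SG12, LPDS raised 5 of 20 rows and lowered none, where 11.5% of all entries rose. They were MT-TE (1.83 ± 0.55, adjusted p = 0.0130 by edgeR), MT-ND3 (1.53 ± 0.45), MT-ATP6 (1.38 ± 0.46), MT-ND2 (1.15 ± 0.35) and MT-CO1 (1.05 ± 0.36). MT-CO1, the catalytic subunit of complex IV, read 92.92, 79.07 and 234.1 CPM in FBS and 269.8, 238.4 and 327.7 CPM in LPDS, without overlap. MT-ND6 had 1.29 ± 0.77 and did not pass. All 20 estimates were above 0, with a median of 1.12. Without robust weighting of the spread, a choice made after the values were seen, 12 rows were called. Single libraries decided the count: it was 15 without replicate 3 in FBS, 0 without replicate 1 or 2 in FBS, and 1 and 0 without replicate 1 or 3 in LPDS. The shares of all entries called in these fits are not given, so the counts are not set against them.

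In SG21, LPDS lowered 3 of 20 rows and raised none, where 1.96% of all entries fell. They were all on the plus strand: MT-TT (-2.26 ± 0.47, adjusted p = 0.00186 by edgeR), MT-CYB (-2.18 ± 0.47, adjusted p = 0.0131 by edgeR) and MT-ND2 (-1.38 ± 0.36). MT-CYB, the heme-binding core of complex III, read 924.0, 970.5 and 698.4 CPM in FBS and 298.2, 126.0 and 150.4 CPM in LPDS. In this row the high-share library, the first in LPDS, also lay below the FBS range. In the MT-ND6 row the same library, at 512.1 CPM, lay within the FBS range (472.6 to 709.5 CPM). MT-TT read 15.93, 13.98 and 13.09 CPM in FBS and 4.82, 1.99 and 2.20 CPM in LPDS. All 20 estimates were below 0, with a median of -1.64 over the plus-strand and -0.78 over the minus-strand rows. Without replicate 1 in LPDS 10 rows were called, and without replicate 2 or 3 in LPDS 1 was. A block for the replicate number gave 9 and the fit without robust weighting 12. With the class term 0 were called. The plus-strand median was then -1.17, with all 13 estimates below 0, and the minus-strand median turned to 0.21 (-0.35 to 0.64). The shares of all entries called in these fits are not given, so the counts are not set against them. Leaving out the low-share libraries keeps 1 SG21 library in LPDS. Plus-strand estimates were then -1.62 (MT-ND4L) to -0.338 (MT-CO2) and minus-strand estimates -0.36 (MT-TA) to 0.626 (MT-TE).

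**Figure D5:**
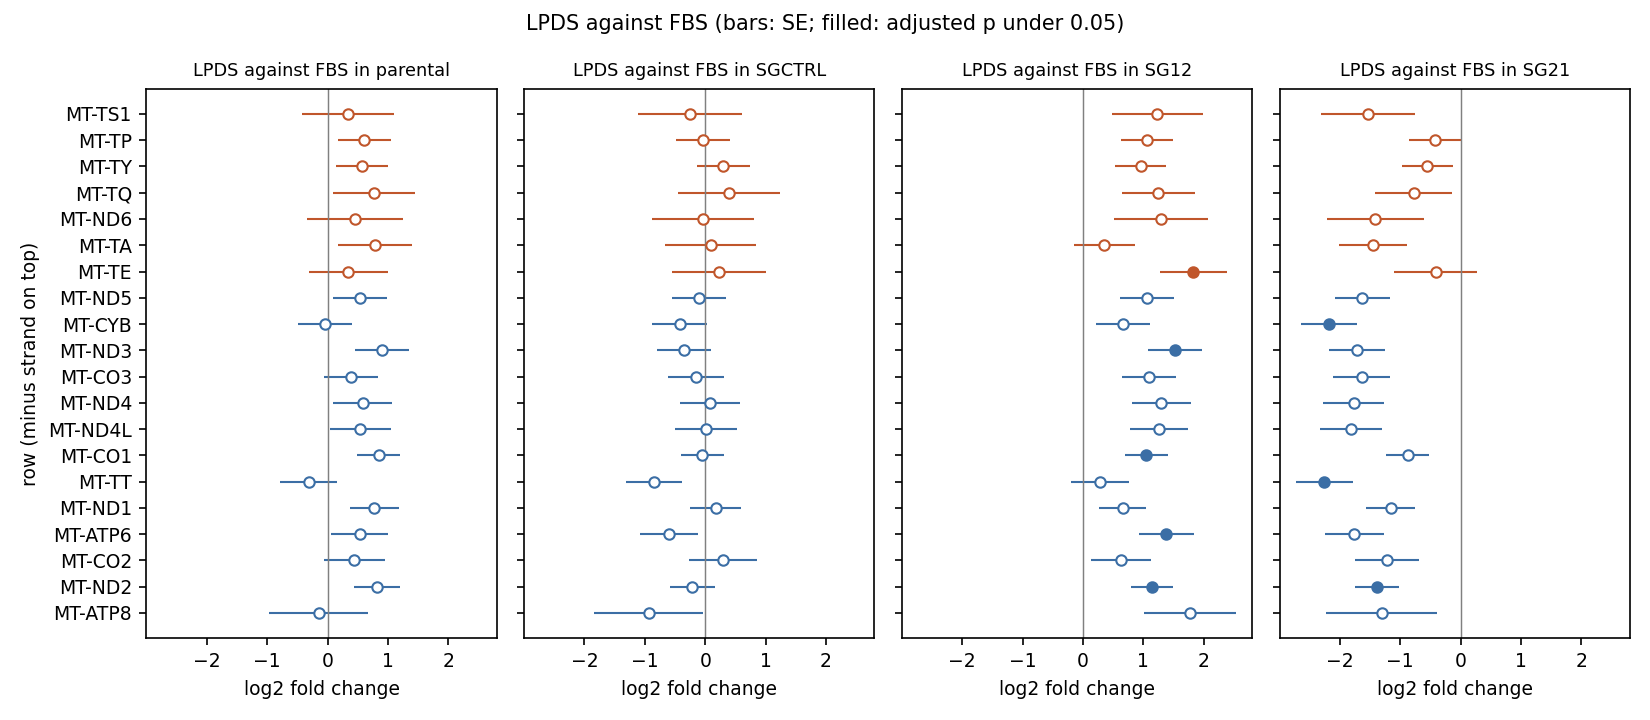
Log2 fold change of the 20 tested rows in LPDS against FBS in each of the 4 lines; minus-strand rows are on top in orange, plus-strand rows below in blue, bars are standard errors, and filled points passed an adjusted p of 0.05. All 20 points lie above 0 in SG12 and below 0 in SG21.

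The difference between the responses was tested directly. The response of SG12 minus that of SGCTRL gave 0 rows by edgeR (5 at an unadjusted p under 0.05, 2 by DESeq2), where 10.7% of all entries were called in either direction; without replicate 3 of SG12 in FBS 9 rows were called, without replicate 3 of SGCTRL in LPDS 2, and with a replicate block 3. SG21 minus SGCTRL gave 0 rows (8 at an unadjusted p under 0.05, 0 by DESeq2), where 0.0468% of entries were called. SG12 minus SG21, a comparison added after the values were seen, gave 11 of 20 rows higher, where 6.64% of all entries were higher. They were 10 of the 12 plus-strand protein rows, among them MT-ND3 (3.24 ± 0.65, adjusted p = 0.00270 by edgeR), MT-ATP6 (3.14 ± 0.67) and MT-CYB (2.84 ± 0.64), and MT-TT (2.55 ± 0.67). None of the 7 minus-strand rows passed (all 7 at an unadjusted p under 0.05), with MT-TS1 at 2.76 ± 1.08 and MT-ND6 at 2.70 ± 1.11. Their estimates were not shown to differ from the plus-strand ones. Without replicate 3 of SG12 in FBS, or without replicate 1 of SG21 in LPDS, 19 rows were called, and with the class term 1 was. The shares of all entries called in these alternative fits are not given, so the counts are not set against them. Leaving out the 8 low-share libraries keeps only 1 SG21 library in LPDS, so no count is given. The estimates of the 11 rows were then 1.15 (MT-ND1) to 2.90 (MT-ND3). Those of the 7 minus-strand rows were 0.722 (MT-TA) to 1.44 (MT-ND6 and MT-TS1), beside 1.48 to 2.76 with all libraries. MT-CO2 was at 0.972 and MT-ATP8 at 2.21.

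Near-identical nuclear copies of mitochondrial genes can take or lose reads, so their entries were read beside the rows. Of 19 listed copies 8 could be tested. MTND6P4, a copy of MT-ND6, rose by 3.10 (SG12) and 2.97 (SG21) on the log2 scale against SGCTRL in FBS and by 4.10 in SG12 in LPDS, and MTND5P11 rose by 2.26 in SG12 in LPDS. MTND6P4 spanned 1.83 to 74.0 CPM, and reads of the copy and of the mitochondrial gene cannot be told apart in the counts.

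Nuclear genes that serve the mitochondrial genome could be read in part, through an opposite-strand entry. Of 45 listed genes of mitochondrial transcription, replication and RNA handling 8 were read: against SGCTRL in FBS 1 rose and 1 fell in each knockout line, and in SG12 in LPDS 0 changed by edgeR's adjusted p. In SG12 in FBS the one that fell was POLG, the mitochondrial DNA polymerase (-0.87, adjusted p = 6.8e-08 by edgeR). Of all entries 12.1% rose and 13.1% fell in SG12 in FBS, and 7.35% rose and 6.69% fell in SG21 in FBS. In SG12 in LPDS 11.1% were called in either direction. The counts are therefore not read as a result about these 8 genes. Of 75 nuclear respiratory chain genes 11 were read: against SGCTRL in FBS 5 rose and 0 fell in SG12, and 5 rose and 2 fell in SG21. Of all entries 12.1% and 7.35% rose in these comparisons, and 13.1% and 6.69% fell. In SGCTRL against parental cells in FBS 0 of the 11 rose and 5 fell, where 10.1% of all entries fell. The SGCTRL libraries thus stood low for several of them in FBS. They are all low-share libraries, so line and library class cannot be told apart here. In SGCTRL against parental cells in LPDS 0 of the 11 rose and 1 fell, where 0.359% of all entries fell. UQCRQ, a small complex III subunit, averaged 256 ± 7.42 CPM in SGCTRL in FBS (SD, n = 3), 418 ± 59.9 in parental cells, 459 ± 28.8 in SG12 and 426 ± 18.6 in SG21. In SG12 against SGCTRL in LPDS 3 rose and 1 fell, where 5.13% of all entries rose and 6.01% fell. The median was 0.24 over the 11 genes, beside 1.82 over the plus-strand mitochondrial rows. Of 30 mitochondrial ribosome genes 7 were read. Against SGCTRL, 2 rose and 1 fell in SG12 in FBS, 0 rose and 3 fell in SG12 in LPDS, and 2 rose and 0 fell in SG21 in each medium; of all entries 25.2%, 11.1%, 14% (FBS) and 10.9% (LPDS) were called in these comparisons.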

How the data were processed

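Reads were demultiplexed with bcl2fastq and aligned with STAR to hg38, per the submitters' processing notes; the counting program, strand setting and annotation are not given in the sources used here. The authors deposited one table of raw counts per library, with 5 closing entries for reads not assigned to a gene (reads in no gene were 94.28 to 94.58% of the unique reads), which stayed out of library sizes and tests. Counts were fitted with edgeR 4.0.16 (R 4.3.3): all 24 libraries, 1 mean per line and medium, filterByExpr, TMM scaling, quasi-likelihood F test, Benjamini-Hochberg adjustment over all 12822 entries. Robust weighting of the spread was chosen after the values had been seen; fits without it are given as an alternative. Levels are TMM-scaled CPM, per kb by GENCODE 29 length. Nuclear genes were read through an entry on the other strand that shares 50 or more bases with the gene. Where an entry faced several genes, the gene read had to hold 80% or more of the shared bases. The 80% is not a share of the gene's length, and an entry can face only a small part of it. The SNX5 entry, for example, shares 68 bases with MGME1. Members and gene lists were chosen with earlier results of these data known; all protein and rRNA rows and the tested tRNA rows are named. DESeq2 1.42.0 and the other alternatives are in the closing section. The fit was tested on simulated data. Replicate numbers did not pair the libraries (same-numbered deviations correlated over 0.1 in 2 of 30 pairs, -0.13 to 0.18).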

Additional observations from a re-analysis of the deposited data

Results flagged for a closer look

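In 11 mitochondrial rows the response to LPDS differed between the knockout lines by a direct test (SG12 minus SG21, log2 scale, edgeR, adjusted p under 0.05), where 6.64% of all entries were higher. The comparison was added after the values were seen. The differences were 3.24 for MT-ND3, 3.14 for MT-ATP6, 3.09 for MT-ND4L, 3.07 for MT-ND4, 2.84 for MT-CYB, 2.73 for MT-CO3, 2.69 for MT-ND5, 2.55 for MT-TT, 2.53 for MT-ND2, 1.93 for MT-CO1 and 1.82 for MT-ND1. In each of them SG12 had an estimate above 0 and SG21 one below 0. Of the 3 SG21 libraries in LPDS 2 belong to the low-share class and no SG12 library does. With a term for that class 1 row was called, but the share of all entries called in that fit is not given, so the count is not set against it. Without the 8 low-share libraries only 1 SG21 library in LPDS is left, so no count is given. The estimates of the 11 rows were then 1.15 (MT-ND1) to 2.90 (MT-ND3). The minus-strand rows, none of them among the 11, were then at 0.722 (MT-TA) to 1.44 (MT-ND6 and MT-TS1), beside 1.48 to 2.76 with all libraries.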

How the results depend on the processing

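Rows called are given for each alternative, out of 20 under the main filter. The order is LPDS against FBS (parental, SGCTRL, SG12, SG21), knockouts against SGCTRL (SG12 and SG21 in FBS, then in LPDS), SGCTRL against parental, and response differences. Comparisons left out stayed within 1.5 times. Alternatives that change the filter or the libraries counted every mitochondrial row passing their own filter, so a count can hold rows outside these 20. Leaving out 1 library gave 0 to 15 in SG12 and 1 to 10 in SG21 for LPDS against FBS, 4 to 10, 2 to 6, 11 to 18 and 0 to 1 for the knockouts, 0 to 9 for SG12 minus SGCTRL and 9 to 19 for SG12 minus SG21. With no count filter it was 1 for parental, 3 for SG12, 5 for SG21 against SGCTRL in FBS, 1 in LPDS, and 1 for SG12 minus SGCTRL. With at least 1 CPM in 3 libraries it was 3 for SG12, 1 for SG21 against SGCTRL in LPDS and 1 for SGCTRL against parental in FBS. The spread of the compared groups alone gave 3 for SG12, 8 for SG21, 4 and 18 for the knockouts in FBS, and 1 and 9 for SGCTRL against parental in FBS and LPDS. Without robust weighting it was 1, 12 and 12 for parental, SG12 and SG21, 14 for SG21 in FBS, 2 for SG21 in LPDS, 2 and 1 for SGCTRL against parental, 4 for SG12 minus SGCTRL and 18 for SG12 minus SG21. DESeq2 gave 9 for SG21, 13 for SG21 in FBS, 1 for SG21 in LPDS, 1 and 1 for SGCTRL against parental and 2 for SG12 minus SGCTRL. The replicate block gave 9 for SG21 and 3 for SG12 minus SGCTRL and moved no other count by over 1.5 times. The library class term gave 0 for SG21 in LPDS against FBS, 0, 0 and 0 for SG12 in FBS, SG21 in FBS and SG12 in LPDS, and 1 for SG12 minus SG21; it turned MT-ND6 to -0.174 (SG12) and -0.334 (SG21) and MT-TE to -0.042 (SG12) in FBS. Among estimates that were not called it also turned the median over the 20 rows of SGCTRL against parental in FBS from -0.267 to 0.873, and the minus-strand median of LPDS against FBS in SG21 from -0.776 to 0.211. Parental cells as control gave 1 and 4 in FBS and 5 for SG12 in LPDS. Chosen after seeing the data, leaving out the 8 low-share libraries gave 1 of the 20 rows for LPDS against FBS in SG12. In parental cells none of the 20 passed (lowest adjusted p = 0.289 by edgeR, MT-CO1). With parental cells as control it gave 1 and 3 in FBS (SG12, SG21) and 3 for SG12 in LPDS. This setting leaves 1 SG21 library in LPDS, so no count is given for SG21 there or for SG12 minus SG21. The strand balance of SG12 against SGCTRL in LPDS was 2.3 as reported and 2.658 with the median of the 12 rows. Apart from the class term the cause of these shifts was not tested. Except where stated above, the share of all entries called is not given for these alternatives. A shift in a count can therefore go with a shift over all entries. MT-TE, MT-ATP8 and MT-TT had at most 70 reads in any library, and depth limits what they can show.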
